A study of Homo sapiens with 6 samples.

Results

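The genes described here build caveolae, the small flask-shaped pits of the plasma membrane. They are the caveolins CAV1 and CAV2, the cavins CAVIN1, CAVIN2 and CAVIN3, and the neck genes EHD2, PACSIN2 and PACSIN3. These 8 of the 16279 genes in the tables were found by their symbols, and the family was picked because CAV1 and CAVIN3 were higher in treated cells. The values of the 8 genes in treated against untreated cells are therefore given as a description, with no p-value, and counts of them among the calls over all genes are printed only beside the share of all genes called. Their levels in untreated cells did not enter the choice.

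RNA was sequenced from 12Z cells, an established human epithelial cell line that came from endometriosis and that the labels call endometrial epithelial cells. The NC group was left untreated, and the rhChemerin group received recombinant human chemerin, a secreted protein that acts on immune and metabolic cells through G protein-coupled receptors, at 10 ng/mL for 48 h. Each group holds 3 libraries that the labels call biological replicates, all from 1 cell line. Library totals ran from 35430881 to 38341643 counts, and the 8 caveola genes had from 633 to 50165 counts in a library. The treated replicate 3 stood apart from the rest of its group. Log2 CPM is a count scaled to the library total times a TMM factor, which scales a library against the others. Across genes, which are not independent replicates, log2 CPM of treated replicate 3 correlated with the other treated libraries at r = 0.960 and 0.976. Between NC libraries r was 0.983 to 0.990. The TMM factor of treated replicate 3 was 0.898, against 0.973 to 1.05 in the other 5 libraries.

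A caveola forms where caveolins, hairpin proteins that bind cholesterol, gather in the inner leaf of the membrane and are covered by an outer coat of cavins. The ATPase EHD2 forms a ring around the neck and holds the pit at the cell surface, and the PACSIN proteins carry F-BAR domains that bend membrane there. Caveolae are known for buffering membrane tension, for handling lipids and for concentrating signalling receptors, and they are common in endothelium, adipocytes, muscle and fibroblasts. Outside striated muscle, pits are lost without CAV1 or without CAVIN1.

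Promoters are shown first so that the genes can be set side by side by sequence. RefSeq on GRCh38.p14 gave windows of 300 bases, from 250 bases before to 50 bases after each start, for 5 of the 8 genes. The 13 windows belonged to CAV1, CAV2, CAVIN2, EHD2 and PACSIN2. The parts printed end before the first exon annotated in GENCODE release 29. Each is on the strand of its gene from 5′ to 3′, with capitals for a GC box, the letters GGGCGG read on either strand. The CAV1 part lies in an intron of the longer CAV1 transcripts, upstream of a start at position 116526362 of chromosome 7, the PACSIN2 part lies upstream of its outermost start, outside any annotated gene, and the CAVIN2 and EHD2 parts lie upstream of the gene, in introns of the overlapping genes AC098617.1 and AC010519.1.
CAV1, chr7:116526112-116526276, plus strand: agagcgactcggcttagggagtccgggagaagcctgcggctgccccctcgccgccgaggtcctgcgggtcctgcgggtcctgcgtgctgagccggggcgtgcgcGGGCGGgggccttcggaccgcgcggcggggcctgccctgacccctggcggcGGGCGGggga
CAVIN2, chr2:191847256-191847338, minus strand: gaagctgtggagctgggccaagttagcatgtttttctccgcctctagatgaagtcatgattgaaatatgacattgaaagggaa
EHD2, chr19:47713172-47713342, plus strand: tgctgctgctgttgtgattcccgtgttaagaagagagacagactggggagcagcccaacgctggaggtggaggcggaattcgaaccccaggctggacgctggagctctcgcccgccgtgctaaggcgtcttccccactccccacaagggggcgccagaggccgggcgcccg
PACSIN2, chr22:43015150-43015399, minus strand: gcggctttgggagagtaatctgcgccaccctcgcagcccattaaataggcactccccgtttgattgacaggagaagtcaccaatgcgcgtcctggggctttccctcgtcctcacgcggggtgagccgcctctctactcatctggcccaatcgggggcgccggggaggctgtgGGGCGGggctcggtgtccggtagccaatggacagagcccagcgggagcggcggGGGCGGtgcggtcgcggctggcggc

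The CAV1 stretch held 2 GC boxes and 79.4% G and C, the PACSIN2 stretch 2 and 68.0%, the EHD2 stretch none and 66.1%, and the CAVIN2 stretch none and 43.4%. In whole windows, G and C made up 61.7% to 71.0% for CAV1, 71.0% and 82.7% for CAV2, 71.0% for EHD2, 49.3% for CAVIN2, 68.7% for the outermost PACSIN2 window and 47.0% to 52.0% for the other 5 PACSIN2 windows, against a median of 58.7% over 35116 windows. A GC box was found in every window of CAV1, CAV2 and EHD2 and in the outermost PACSIN2 window, in none of the other 5 PACSIN2 windows and not in that of CAVIN2, and in 45.0% of all windows. In GC content and in lacking a GC box, those 5 PACSIN2 windows were close to that of CAVIN2. The only EHD2 box lies in the part that is not printed. The letters GGAATG, the core that TEAD factors bind, were found in the CAVIN2 window and in 4 PACSIN2 windows, and in 14.0% of all windows. The PACSIN2 windows of the starts at 42959856, 42959881 and 42959899 overlap for most of their length, so they can hold the same site. The CAV1 windows of the starts at 116525009 and 116525036 overlap in the same way. Windows of a gene are therefore not independent counts of a motif. The TATA box letters TATAAA (11.5% of all windows) and the E box CACGTG (7.26%) were in none of the 13 windows. The search used both strands, and none of the 4 motifs contains another. The reads were counted per gene, so the counts do not show which start was used.

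In untreated cells all 8 genes were expressed, and the lowest, CAV2, was at the 66.8th percentile of FPKM over the 13311 genes tested. FPKM, a count scaled to gene length and library total, was used wherever genes are compared with each other. It holds no TMM factor, while the edgeR fold changes do, so FPKM means and log2 fold changes can differ in sign where differences are small. CAVIN1, the coat gene without which pits do not form, was at the top with 210.3 ± 18.2 FPKM (SD, n = 3). EHD2 followed with 135 ± 7.06, PACSIN2 with 43.4 ± 1.95, CAVIN2 with 31.9 ± 0.761 and CAV1 with 29.0 ± 4.12. PACSIN3 (20.1 ± 0.928), CAVIN3 (18.0 ± 1.36) and CAV2 (14.9 ± 2.21) were the lowest. The ranges of neighbours in this order overlapped between CAVIN2 and CAV1, between PACSIN3 and CAVIN3 and between CAVIN3 and CAV2, so those pairs could not be ordered. With rhChemerin the order began again with CAVIN1 and EHD2, and CAV1 (62.6 ± 14.0) moved to the third place with a range that overlapped that of PACSIN2 (49.9 ± 7.35). CAVIN3 (37.3 ± 1.55) stood above CAVIN2 (24.2 ± 11.7) with no overlap of their ranges, while PACSIN3 (17.9 ± 1.71) and CAV2 (17.6 ± 1.06) were last.

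**Figure D1:**
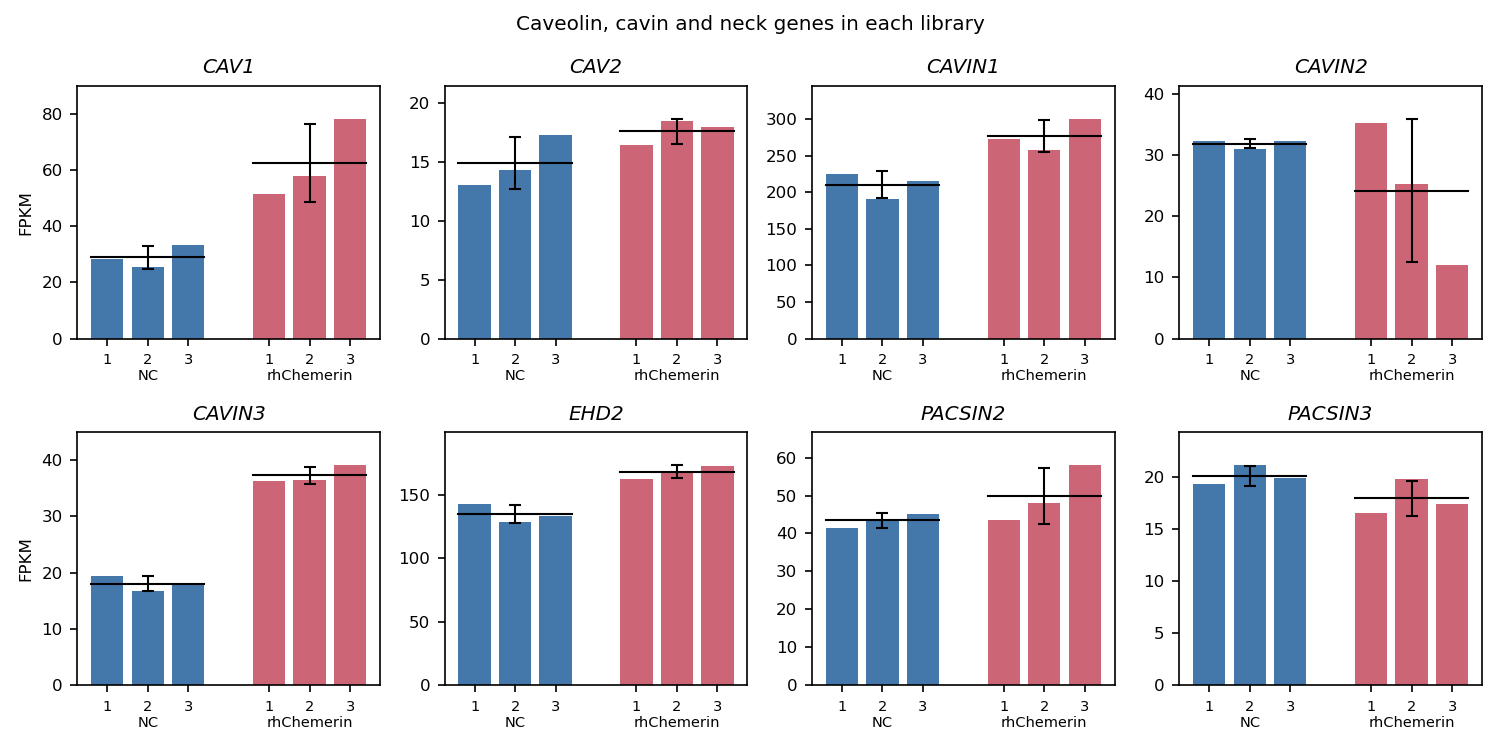
FPKM of the 8 genes in each of the 6 libraries, with NC in blue and rhChemerin in red. Black lines are group means and error bars are SDs (n = 3). The treated bars of CAV1, CAVIN1, CAVIN3 and EHD2 all stand above the untreated ones, and those of CAVIN2 run from 35.3 down to 12.0.

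CAV1 encodes the main caveolin of non-muscle cells and lies on chromosome 7 from 116524785 to 116561184, plus strand (this and the other positions are from GENCODE release 29 on GRCh38). It measured 28.3, 25.3 and 33.5 FPKM in NC 1 to 3 and 51.5, 58.0 and 78.3 in rhChemerin 1 to 3. Every treated library was above every untreated one, and the highest value was that of treated replicate 3. With edgeR the log2 fold change was 1.25 ± 0.21 (SE), a fold of 2.38. Without rhChemerin replicate 3 it was 1.00 ± 0.13. CAV2, whose product joins CAV1 in mixed oligomers, ends 16.2 kb before the CAV1 start and reads in the same direction (chromosome 7, 116287380 to 116508541). It measured 13.02, 14.3 and 17.3 FPKM in NC and 16.4, 18.5 and 18.0 in rhChemerin. Here the groups overlapped, since NC 3 was above rhChemerin 1, and the log2 fold change was 0.38 ± 0.13. In the exon map 76 of its 6926 exon bases are also covered by a gene on the other strand.

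CAVIN1 and CAVIN3 were higher in every treated library, and CAVIN2 was not. CAVIN1 (chromosome 17, 42402452 to 42423517, minus strand) encodes the cavin that holds the coat together. It measured 225.5, 190.2 and 215 FPKM in NC and 272, 258 and 300.3 in rhChemerin, without overlap. Its log2 fold change was 0.53 ± 0.13, a fold of 1.45, and 0.42 without rhChemerin replicate 3. CAVIN3 (chromosome 11, 6318946 to 6320647, minus strand) encodes a cavin that binds CAVIN1 and protein kinase C delta. It measured 19.5, 16.8 and 17.8 FPKM in NC and 36.3, 36.5 and 39.1 in rhChemerin. The treated libraries lay close together and well apart from NC, with a log2 fold change of 1.18 ± 0.12, a fold of 2.27, and 1.10 without rhChemerin replicate 3. Of its 1672 exon bases, 557 are shared with AC068733.3, a gene on the other strand that is not in the tables. The strand setting of the counting was not given in the sources used here, and without strand the reads of the 2 genes cannot be told apart.

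CAVIN2 (chromosome 2, 191834302 to 191847255, minus strand) encodes a cavin that recruits CAVIN1 to the membrane and shapes the pits. It measured 32.4, 31.0 and 32.3 FPKM in NC and 35.3, 25.3 and 12.0 in rhChemerin. The untreated libraries were almost level, while treated replicate 1 was above them and replicates 2 and 3 below them. The log2 fold change of -0.29 ± 0.30 turned to 0.01 without rhChemerin replicate 3 and was -0.64 without rhChemerin replicate 1, so that single libraries set its sign and size. Of its 3229 exon bases, 233 are shared with a gene on the other strand. The largest single-library difference of CAVIN2 and of CAV1 from the NC mean was in that same library, at -1.19 for CAVIN2 and 1.66 for CAV1 on the log2 CPM scale.

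Among the neck genes EHD2 stood out. EHD2 (chromosome 19, 47713343 to 47743134, plus strand) measured 142, 128 and 133 FPKM in NC and 163, 169 and 172 in rhChemerin, without overlap. Its log2 fold change was 0.45 ± 0.10, a fold of 1.37, and 0.38 without rhChemerin replicate 3. PACSIN2 (chromosome 22, 42835412 to 43015145, minus strand), the widely expressed F-BAR protein that shapes the neck, measured 41.3, 43.9 and 45.1 FPKM in NC and 43.6, 48.1 and 57.9 in rhChemerin. The groups overlapped, as treated replicate 1 lay below NC 2 and 3, and on TMM-scaled CPM they did not. The log2 fold change of 0.34 ± 0.14 was 0.16 without rhChemerin replicate 3. PACSIN2 shares 155 exon bases with its neighbour ARFGAP3 on the same strand. PACSIN3 (chromosome 11, 47177525 to 47186443, minus strand), the muscle-enriched relative, measured 19.3, 21.1 and 19.9 FPKM in NC and 16.6, 19.8 and 17.4 in rhChemerin. The groups overlapped and the log2 fold change was -0.03 ± 0.11.

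**Figure D2:**
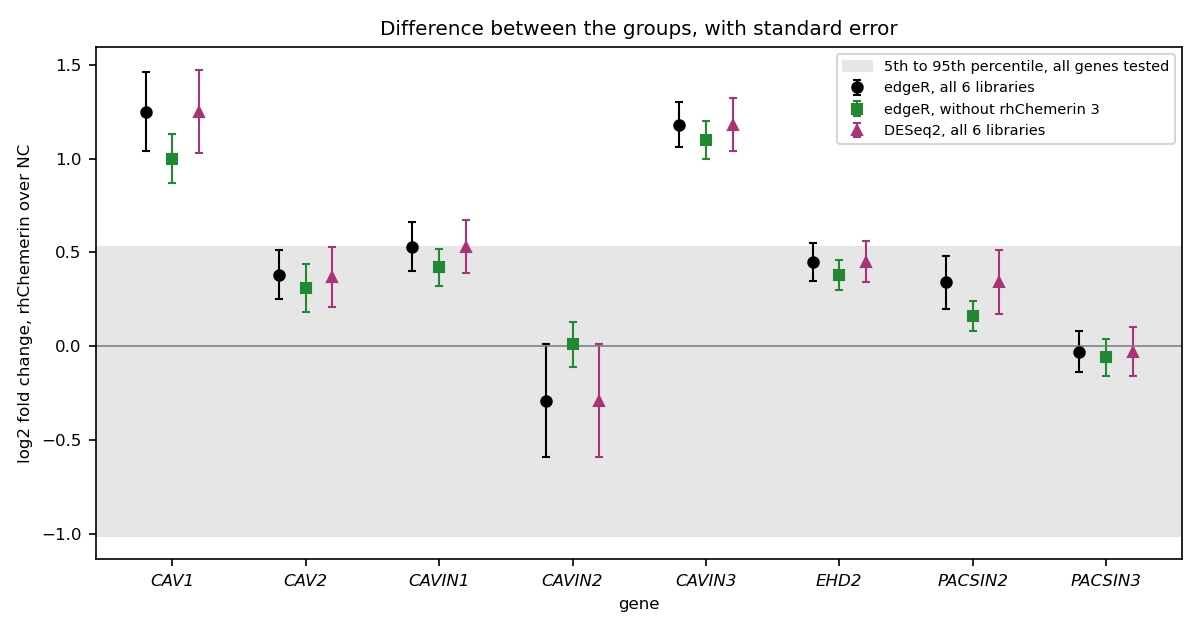
Log2 fold change of rhChemerin over NC for each gene, with error bars of 1 SE, from edgeR on all 6 libraries (circles), edgeR without rhChemerin replicate 3 (squares) and DESeq2 (triangles). The grey band holds the 5th to 95th percentile of all genes tested, from -1.01 to 0.53. CAV1 and CAVIN3, the genes that the family was picked on, lie above it in all 3 fits, and CAVIN2 lies at 0.01 without the third treated library.

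In all, 6 of the 8 genes were higher and 2 lower with rhChemerin, and their median log2 fold change was 0.41 against 0.01 for all genes tested, of which 8.20% lay above 0.41. Without rhChemerin replicate 3 the medians were 0.35 and 0.00. Scaling by library size alone moved the median of all genes to -0.12 and that of the 8 genes to 0.28, which left the distance between them at the same size. The FPKM of the groups did not overlap, with rhChemerin higher, for 4 of the 8 genes and for 7.36% of all genes tested. On TMM-scaled CPM this held for 5 of the 8 and for 16.5% of all genes. At an adjusted p under 0.05 (Benjamini-Hochberg over all genes tested), edgeR's quasi-likelihood test called 1 of the 8, CAVIN3, where it called 0.0150% of all genes as higher and 0.0301% in either direction. DESeq2, the study's tool but run here without a cut on fold change, called 4 of the 8 as higher (CAV1, CAVIN1, CAVIN3 and EHD2), against 3.75% of all genes. The paper also required an absolute log2 fold change above 1. CAVIN1 (0.53) and EHD2 (0.45) lay below that cut in DESeq2. The paper names CAV1 as up-regulated in its own DESeq2 analysis and reports a qPCR change in the same direction. Without rhChemerin replicate 3 edgeR called CAV1 and CAVIN3, against 1.19% of all genes as higher, and DESeq2 called the same 4, against 5.66% of all genes as higher. These counts rest on the contrast that chose the family and are shown beside the background only.

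Ratios between the genes were set side by side in each library. The FPKM ratio of CAV1 to CAV2 was 2.17, 1.77 and 1.93 in NC and 3.13, 3.14 and 4.36 in rhChemerin. CAVIN1 to CAV1, outer coat to membrane coat, was 7.97, 7.50 and 6.43 in NC and 5.29, 4.46 and 3.83 in rhChemerin. For both ratios the groups were apart, one upward and one downward. CAVIN3 to CAVIN1 was 0.0863, 0.0881 and 0.0829 in NC and 0.133, 0.141 and 0.130 in rhChemerin. EHD2 to CAV1 was 5.03, 5.06 and 3.98 in NC and 3.16, 2.91 and 2.20 in rhChemerin. The groups did not overlap in any of the 4 ratios. Each ratio has CAV1 or CAVIN3 in it, so the choice of the family fixed part of this. They are ratios of RNA per length and say nothing of protein in a pit.

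**Figure D3:**
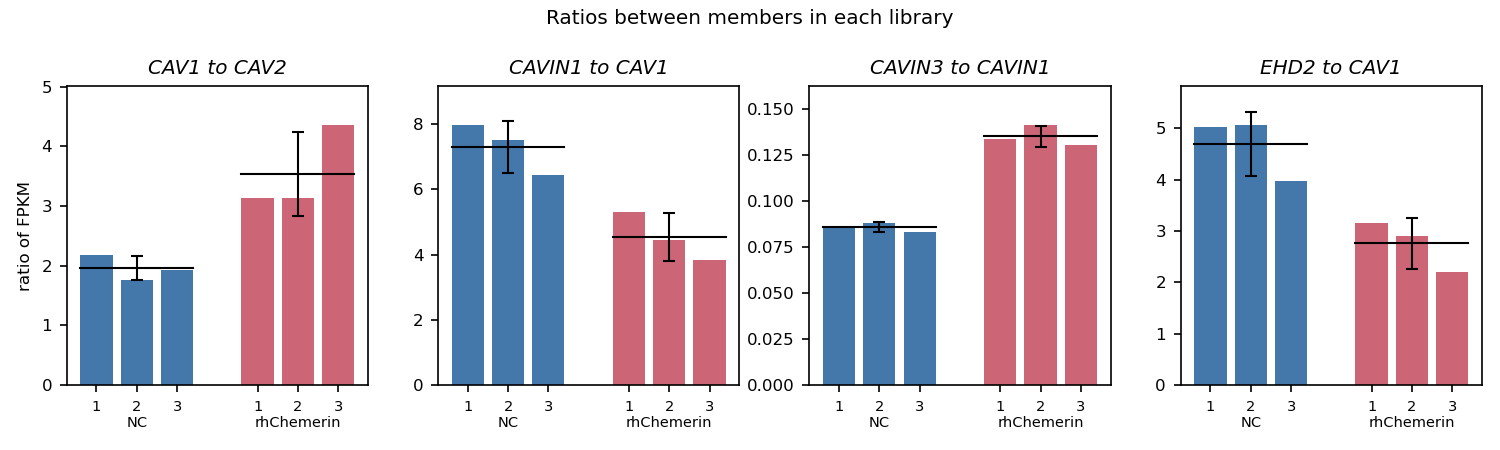
Ratio of FPKM between pairs of caveola genes in each library, NC in blue and rhChemerin in red, with group means (lines) and SDs (error bars, n = 3). CAV1 to CAV2 and CAVIN3 to CAVIN1 are higher in each treated library, and CAVIN1 to CAV1 and EHD2 to CAV1 are lower.

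The closest relatives of the 8 genes were set beside them. Of 6 relatives, CAV3 was not analysed here, and 5 were tested. Their median was 0.13 on the log2 scale, with 3 higher and 2 lower. None was called by edgeR, which called 0.0301% of all genes. DESeq2 called none either, against 3.75% of all genes as higher and 5.30% as lower. At an unadjusted p under 0.05 in edgeR there were 0, against 22.8% of all genes. With 5 genes these counts are no result about the relatives. EHD1 and EHD4, ATPases of endocytic recycling, were well expressed. EHD1 measured 27.1 ± 1.23 FPKM in NC and 26.7 ± 9.23 in rhChemerin, and its log2 fold change of 0.13 ± 0.25 was -0.24 without rhChemerin replicate 3. EHD4 measured 15.9 ± 0.866 and 16.0 ± 1.10 (log2 fold change 0.14 ± 0.11). The others were below 1 FPKM in the mean of each group. EHD3 had a log2 fold change of 0.55 ± 0.42, the muscle cavin CAVIN4 of -0.50 ± 0.33 and the neuronal PACSIN1 of -1.75 ± 0.77, the last from 1 to 53 counts.

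Around them, 5 further lists covered caveola partners and regulators, flotillins and other SPFH proteins, the clathrin coat with its adaptor AP2, other BAR domain proteins and the YAP and TEAD axis. With the relatives the 6 lists held 95 genes, of which 89 were tested. edgeR called 0 of the 89, while 21 had an unadjusted p under 0.05, against 22.8% of all genes tested. DESeq2 called 5 as higher and 3 as lower, against 3.75% and 5.30% of all genes, and 8 and 5 without rhChemerin replicate 3, where it called 5.66% and 6.47% of all genes. The median log2 fold changes were 0.04 over 17 partners and regulators, 0.13 over 8 flotillins and SPFH proteins, 0.02 over 32 clathrin genes, 0.01 over 15 BAR domain genes and -0.08 over 12 YAP and TEAD genes.

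Caveola partners and regulators had 10 genes higher and 7 lower, with 2 called by DESeq2, both higher. FLNA, the actin crosslinker filamin A that binds CAV1, measured 290 ± 13.5 FPKM in NC and 426 ± 86.9 in rhChemerin, a log2 fold change of 0.70 ± 0.19 (edgeR, adjusted p = 0.119) and 0.46 without rhChemerin replicate 3, where edgeR called it. MYOF, the membrane-repair protein myoferlin, measured 36.6 ± 1.91 and 49.5 ± 6.73 (0.57 ± 0.14, edgeR, adjusted p = 0.105). Neither gene passed edgeR's threshold on all libraries. Among flotillins and SPFH proteins, 6 were higher and 2 lower. ERLIN1, a cholesterol-binding protein of the endoplasmic reticulum, measured 30.7 ± 0.972 and 38.8 ± 1.98 FPKM (0.47 ± 0.09, edgeR, adjusted p = 0.0753), and was the 1 gene of its list called by DESeq2 and, without rhChemerin replicate 3, by edgeR. PHB2, a prohibitin of the inner mitochondrial membrane, had a log2 fold change of 0.34 ± 0.10 (edgeR, adjusted p = 0.131).

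Clathrin-coated pits are the other main route of uptake from the surface. Of their 32 genes, 17 were higher and 15 lower. FCHO1, an F-BAR protein that starts coated pits, had the largest log2 fold change of this list at -0.88 ± 0.42 (edgeR, adjusted p = 0.259), and the uncoating factor DNAJC6 followed at -0.60 ± 0.36 (edgeR, adjusted p = 0.345). DESeq2 called the heavy chain CLTC and the AP2 subunit AP2M1 as higher and the dynamin DNM1 as lower. The latter 3 genes and ARHGAP26 below were singled out after their values were seen. CLTC measured 61.6 ± 3.07 FPKM in NC and 70.4 ± 2.08 in rhChemerin, and DNM1 60.4 ± 0.840 and 45.0 ± 1.57. The BAR domain list had 8 genes higher and 7 lower. SH3GL3, an endophilin, was at -1.04 ± 0.44 from 25 to 135 counts (edgeR, adjusted p = 0.217), and PSTPIP2, an F-BAR protein, at -0.77 ± 0.23 (edgeR, adjusted p = 0.133). DESeq2 called PSTPIP2 and ARHGAP26 as lower. YAP and TEAD genes, a tension-sensing axis, were 4 higher and 8 lower, with none called by either tool and 2 at an unadjusted p under 0.05 in edgeR. ANKRD1, a YAP target, was at -0.62 ± 0.45 (edgeR, adjusted p = 0.429) and the factor TEAD4 at 0.35 ± 0.11 (edgeR, adjusted p = 0.142).

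**Figure D4:**
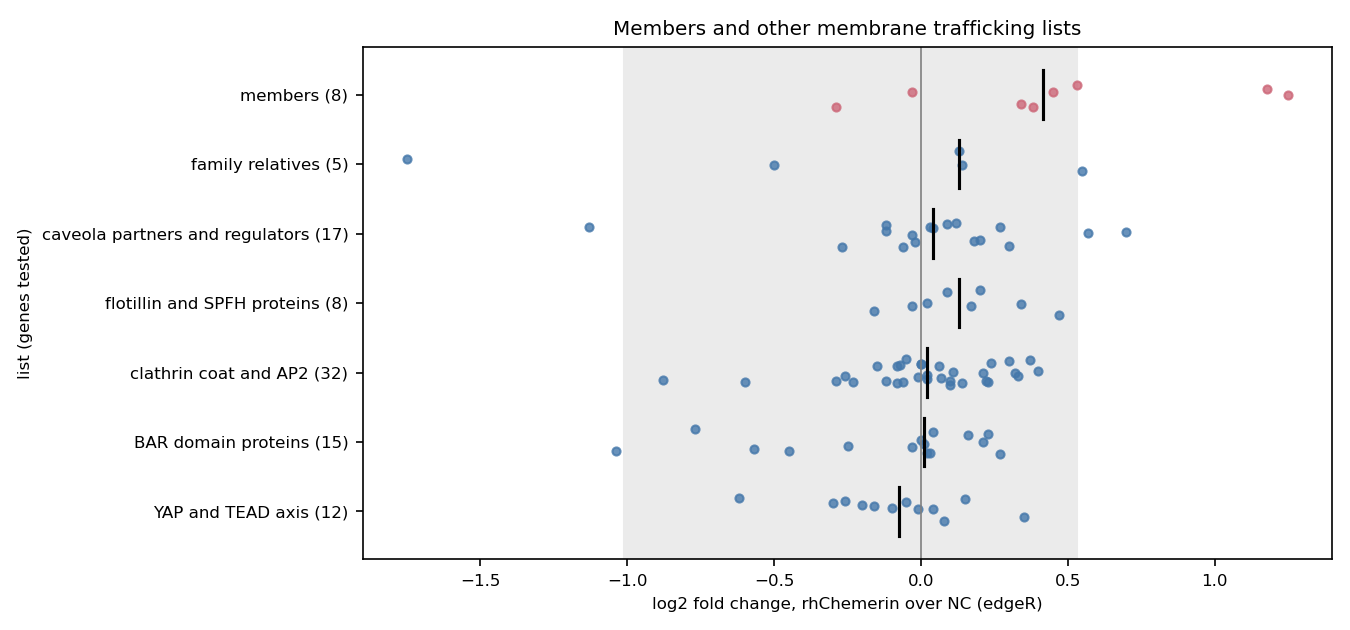
Log2 fold change of rhChemerin over NC from edgeR for the 8 caveola genes (red) and for the genes tested in each of 6 other lists (blue, number in brackets). Points are genes, black marks are medians and the grey band is the 5th to 95th percentile of all genes tested. The median of the 8 genes is 0.41, and those of the other lists lie between -0.08 and 0.13.

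The authors' count table carries gene ontology terms, and 67 genes in it have the term caveola, 7 of the 8 among them. This list was looked up after the files were seen. Of the other 60 genes, 51 were tested, with 26 higher, 25 lower and a median of 0.00. edgeR called 0 and 11 had an unadjusted p under 0.05, near the background of 22.8%. DESeq2 called 3 as higher (KCNMA1, MYOF and TFPI) and 3 as lower (ADRA1B, ATP1B1 and SCARB1), against 3.75% and 5.30% of all genes, so that these counts are no result about the list. ATP1B1, a subunit of the sodium pump, measured 32.9 ± 3.03 FPKM in NC and 19.5 ± 1.54 in rhChemerin, and SCARB1, the HDL receptor, 44.0 ± 2.82 and 29.1 ± 3.88, in both cases without overlap. TFPI, a coagulation inhibitor, measured 13.1 ± 0.591 and 20.3 ± 4.44. ATP1B1, SCARB1 and TFPI were singled out after their values were seen. KCNMA1 measured 2.57, 3.39 and 6.56 FPKM in rhChemerin 1 to 3. Its log2 fold change of 1.06 ± 0.36 was 0.50 without rhChemerin replicate 3. HMOX1 had the largest log2 fold change of the list at 1.29 ± 0.76, with no call by either tool, and was at -0.38 without that library.

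Levels of other cell types' markers were set beside these values. The epithelial keratins KRT8, KRT18 and KRT19 summed with the rest of their list to 1597 to 1867 FPKM in NC and 1761 to 1977 in rhChemerin. The defining markers EPCAM, CDH1, ELF3 and ESRP1 were below 1 FPKM in every library. Of 9 epithelial markers tested, 5 had an unadjusted p under 0.05 in edgeR, against 22.8% of all genes. KRT8 (log2 fold change 0.29 ± 0.12) and KRT19 (0.27 ± 0.11) were higher. EPCAM (-1.46 ± 0.51, from 7 to 45 counts), CDH1 (-1.14 ± 0.44, from 15 to 65 counts) and MUC1 were lower. Fibroblast and stromal markers, COL1A1 foremost, summed to 1703 to 2198 and 1170 to 2312 FPKM. Of the other epithelial markers, KRT7 and CLDN4 were low, at no more than 2.01 and 1.31 FPKM, and the mucin MUC1 measured 12.7 ± 2.20 FPKM in NC and 7.85 ± 1.73 in rhChemerin. MUC1 was the 1 epithelial marker called by DESeq2, as lower, against 5.30% of all genes (log2 fold change -0.57 ± 0.17, edgeR, adjusted p = 0.135). Without rhChemerin replicate 3 DESeq2 called 0 epithelial markers as lower, against 6.47% of all genes. The summed level of the list, which the keratins make up, had overlapping groups. At the RNA level the label of an epithelial line is thus met by 3 keratins and MUC1 and not by EPCAM, CDH1, ELF3 and ESRP1. For protein, the paper reports immunoblots of these cells that detected E-cadherin, the product of CDH1, and MUC1. RNA levels do not measure that protein. In endothelium and adipocytes, tissues rich in caveolae, the markers summed to at most 2.06 and 0.815 FPKM in any library. Of 8 fibroblast and stromal markers tested, 5 higher and 3 lower, DESeq2 called PDGFRA as higher (log2 fold change 0.79 ± 0.22), against 3.75% of all genes. Of 3 endothelial markers tested, all lower, it called VWF as lower (-1.97 ± 0.52, from 13 to 159 counts), against 5.30%. edgeR called neither PDGFRA nor VWF. Smooth muscle markers summed to 42.3 to 50.3 FPKM in NC and 13.9 to 27.3 in rhChemerin, and 3 of the 3 tested (ACTA2, CNN1 and DES) were called as lower by DESeq2, against 5.30% of all genes, and 0 by edgeR, where all 3 had an unadjusted p under 0.05 and all 3 were called as lower without rhChemerin replicate 3, against 1.88% of all genes. ACTG2, too low to be tested, measured 0.0564, 0.145 and 0.0739 FPKM in NC and 0.139, 0.587 and 1.25 in rhChemerin, and MYH11 and MYOCD were at or near 0. The part of these shifts in the caveola genes was not tested, and in bulk RNA fewer cells of a kind and less RNA per cell cannot be told apart.

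CAV1, CAV2 and the receptor tyrosine kinase gene MET lie in a row on chromosome 7. MET begins 147.6 kb after the CAV1 start and measured 7.04, 8.10 and 9.72 FPKM in NC and 9.30, 12.7 and 18.2 in rhChemerin. The groups overlapped, and the log2 fold change was 0.84 ± 0.27 (edgeR, adjusted p = 0.145) and 0.49 without rhChemerin replicate 3. DESeq2 called it on all libraries. Of the 6 genes tested within 200 kb of the CAVIN3 start, SMPD1 and APBB1 had a log2 fold change above 0. TRIM3, ARFIP2, TIMM10B and DNHD1 were lower. The log2 fold changes ran from -0.69 to 0.14 with no call by either tool, while 1 gene had an unadjusted p under 0.05 in edgeR. APBB1 (0.04 ± 0.11) was lower in FPKM, at 23.7 ± 0.786 in NC and 22.3 ± 4.13 in rhChemerin.

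Of all genes tested, those whose pattern over the 6 libraries was most like that of CAV1 included NAV3, ZNF804A, FST and CAVIN3. Likeness was the root mean square difference of log2 CPM after each gene was centred on its NC mean, and it was 0.128 for NAV3, a microtubule-binding navigator, and 0.189 for CAVIN3. Those nearest to CAVIN3 included ZNF804A (0.136), DPYSL3 (0.144), NAV3 (0.154) and GALNT12 (0.177), with CAV1 at rank 7. NAV3 and ZNF804A were near to both. The measure mostly follows the size of the difference between the groups, on which CAV1 and CAVIN3 were picked, so the choice of the family fixed that they lie near each other and that the rest lie farther off. CAVIN1 was at rank 316 from CAV1, EHD2 at 545, CAV2 at 841, PACSIN2 at 1082, PACSIN3 at 6777 and CAVIN2 at 11340 of the genes tested.

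**Figure D5:**
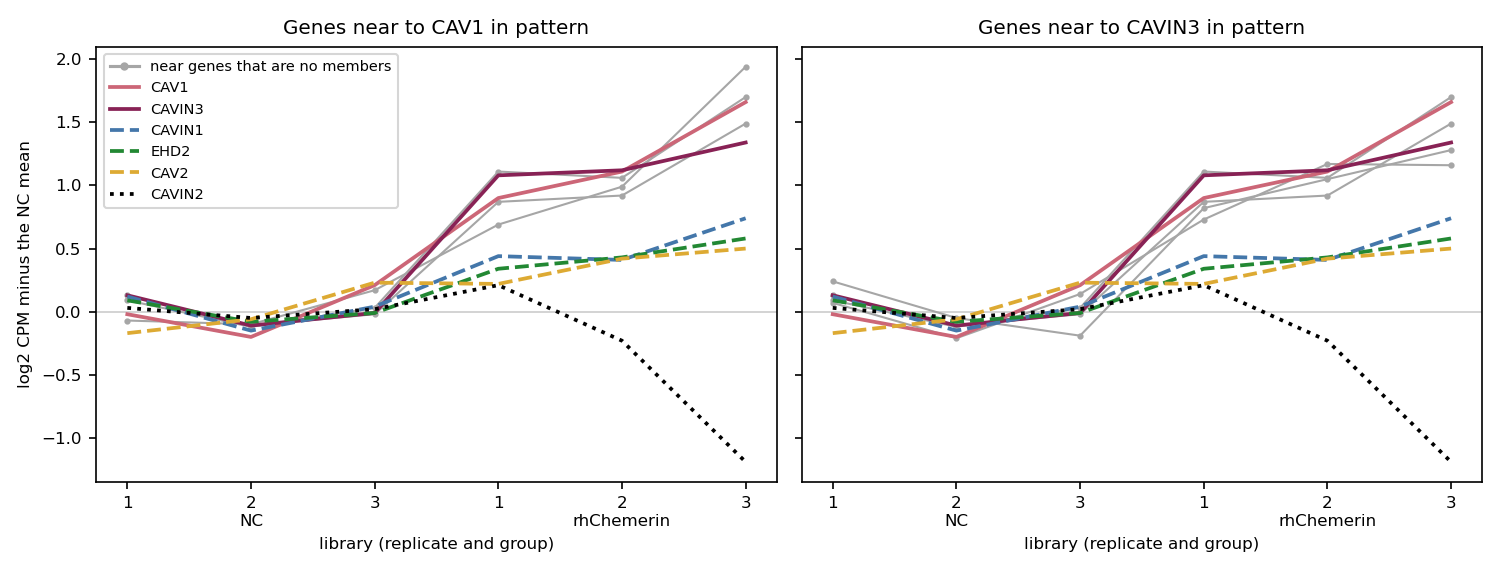
Log2 CPM minus the NC mean in each library for CAV1, CAVIN3, CAVIN1, EHD2, CAV2 and CAVIN2 (coloured or black) and, in grey, for NAV3, ZNF804A and FST near to CAV1 (left) and ZNF804A, DPYSL3, NAV3 and GALNT12 near to CAVIN3 (right). Lines join the points of 1 gene only to guide the eye, as replicates have no order. CAVIN2 ends at -1.19 in rhChemerin 3, where CAV1 is at 1.66.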

How the data were processed

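The authors extracted total RNA and built libraries with the VAHTS Universal V6 kit. Reads were trimmed by fastp and aligned by HISAT2 to GRCh38.p13, and HTSeq-count gave the reads on each gene. The authors deposited these raw counts and, in another table, FPKM for all 16279 genes. Neither the strand setting nor the versions of these tools were given in the sources used here. The 76321 FPKM values with at least 20 counts were checked against the counts and implied 1 fixed length per gene within a relative tolerance of 0.001.

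Counts were tested in R 4.3.3 with edgeR 4.0.16 (TMM, filterByExpr with the group, quasi-likelihood test, Benjamini-Hochberg over 13311 genes), and the scripts were tested on simulated data. Alternatives were DESeq2 1.42.0 on all genes, limma 3.58.1 on FPKM in log2 with a pseudocount of 1 or 0.1, library size or RLE scaling, other filters, the replicate number as a block and each library left out. DESeq2 without rhChemerin replicate 3 was added after the data were seen. With 3 libraries against 3, an exact two-sided permutation test cannot go below p = 0.10. The labels call the libraries biological replicates of 1 line, so p-values set the difference between the groups against the spread between these cultures.

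The genes and lists were chosen with earlier results of these data known. All 8 caveola genes and the relatives are named. In other lists the rule names genes called by edgeR or, with none, the 2 of largest log2 fold change among those with a mean CPM of at least 1. The 5 nearest in pattern to CAV1 and to CAVIN3 (log2 CPM, prior count 2) and tested neighbours within 200 kb are also named. One gene that this rule names is not reported here. Protein sequences and the promoters of CAVIN1, CAVIN3 and PACSIN3 were not used here.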

Additional observations from a re-analysis of the deposited data

How the results depend on the processing

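The number of caveola genes called, 1 in the edgeR fit on all libraries, was 4 with DESeq2, 4 with DESeq2 without rhChemerin replicate 3 and 2 with limma on log2(FPKM + 1), and 0 to 3 when each library was left out. It was 0 without NC replicate 1, 2 or 3 and without rhChemerin replicate 2, where edgeR called 0 genes of all, 3 without rhChemerin replicate 1 and 2 without rhChemerin replicate 3. The genes called of all moved as well, from 4 to 1302 with DESeq2, 1695 with DESeq2 without rhChemerin replicate 3, 179 with limma on log2(FPKM + 1), 844 without rhChemerin replicate 1 and 415 without rhChemerin replicate 3. Of the other lists, 0 genes were called, against 8 with DESeq2, 13 with DESeq2 without rhChemerin replicate 3, 1 with limma on log2(FPKM + 1) and 0 to 3 when each library was left out (3 without rhChemerin replicate 1 and 2 without rhChemerin replicate 3). The median log2 fold change of the 8 genes, 0.41, was 0.28 with library size only, 0.28 with limma on log2(FPKM + 1) and 0.28 with limma on log2(FPKM + 0.1). None of these settings uses a TMM factor. With library size only the median of all genes tested moved too, from 0.01 to -0.12. The causes were not tested. CAVIN2 in NC was at 30.5 on TMM-scaled CPM per kb against 31.9 FPKM. All 8 levels were lower on that scale, CAVIN1 for example at 201.2 against 210.3. Only CAVIN2, with its small SD of 0.761, moved by more than its SD. The other levels and the ratios moved by less than the SD between replicates under every alternative run for them. Arithmetic fixed most of this. Leaving out 1 of 3 libraries cannot shift a mean by as much as the SD. Library scaling cancels in a ratio of 2 genes. These refits therefore say nothing of how stable the levels and ratios are. Of 128 refits of single log2 fold changes, 3 changed sign, namely CAVIN2 without rhChemerin replicate 3 in edgeR and in DESeq2, and PACSIN3 without rhChemerin replicate 1.

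With the replicate number as a block, 0 of the 8 genes and 1 gene of all were called. Deviations of same-numbered libraries from their group means correlated at 0.24, 0.00 and 0.25, and those of other-numbered libraries at -0.31 to 0.11. NC 1 and NC 3 thus correlated best with the treated library of their own number, and NC 2 with rhChemerin 1 (0.11). The SE of CAV1 was 0.12 with the block and 0.21 without it, and that of CAVIN3 was 0.12 in both. The labels name no pairing, so the main fit has no block. Whether the numbers pair the libraries was not settled.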
